A study of Mus musculus with 10 samples.

Results

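The genes described here are 10 disease-associated microglia genes, Trem2, Tyrobp, Clec7a, Itgax, Axl, Lyz2, Cd68, Cst7, Gpnmb and Spp1. They were chosen by name from the signature that microglia are known to take on in degenerating tissue, with earlier results of these data known. They make up 10 of the 55536 genes in the tables. Cerebellum and cerebral cortex were taken from 5 mice aged 1 year for RNA-Seq, 1 library for each tissue of each mouse and 10 in all. The question is how these genes compare between Snx14-KO mice and controls in a tissue where Purkinje cells (PCs) degenerate and in one that the study describes as spared. Controls 1 and 2 are labelled Het and carry 1 mutant copy of Snx14, control 3 is WT, and KO 1 and KO 2 are homozygous. All mice come from 1 constitutive CRISPR line on a C57BL/6J background, in which a frameshift deletion of a single base disrupts Snx14 in every cell, and the tissue was not sorted.

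Microglia are the resident macrophages of the brain. TREM2 is a surface receptor for lipids and lipoproteins that signals through the adaptor TYROBP. This signal is known to be needed for microglia to go from a homeostatic state all the way to the full disease-associated state. In that state they raise genes for phagocytic receptors, lysosomal proteins, lipid handling and secreted factors, and lower homeostatic genes. Bulk RNA cannot tell more cells of a type from more RNA per cell, so every level below is a property of the tissue.

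Libraries held 16088310 to 22975355 gene counts. Levels are CPM values (counts scaled to a common library size), with sizes corrected by TMM factors over all 10 libraries, and TPM where genes are compared with each other. Summed granule cell markers were 3232 to 3864 CPM in cerebellum and 13.5 to 29.97 CPM in cortex, and cortical excitatory neuron markers were 9.54 to 23.4 and 387 to 477 CPM. Snx14 itself was lower in KO mice of either tissue, by -1.66 in cerebellum (adjusted p 0.0140) and by -1.36 in cortex (adjusted p 0.754) on the log2 scale, without overlap, and the cerebellar call was lost without KO 1 or KO 2 (adjusted p 0.0989 and 0.0639). Control 2 and KO 2 were male by their Xist and Y-linked transcripts, and the rest were female. The cerebellum library of KO 1 stood apart in choroid plexus markers, which summed to 48.4 CPM there and to 1199 to 3374 CPM in the other cerebella. That of KO 2 stood apart in cortical excitatory neuron markers, at 23.4 CPM against 9.54 to 12.4 CPM in the other cerebella.

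The stretches just upstream of Spp1, Lyz2, Cst7 and Itgax are shown because these 4 genes had the largest fold changes in KO cerebellum. Each runs 5′ to 3′ in the direction of transcription and covers the 250 bases before the RefSeq start, less any base inside the gene as the tables give it, which left 201 for Lyz2 and 247 for Itgax (RefSeq sequences, build GRCm38.p6). Capitals mark GGAAGT, the core bound by PU.1 and other ETS factors, on either strand (ACTTCC on the other), and in Itgax also TGAGTCA, a form of the AP-1 motif TGANTCA.
Spp1: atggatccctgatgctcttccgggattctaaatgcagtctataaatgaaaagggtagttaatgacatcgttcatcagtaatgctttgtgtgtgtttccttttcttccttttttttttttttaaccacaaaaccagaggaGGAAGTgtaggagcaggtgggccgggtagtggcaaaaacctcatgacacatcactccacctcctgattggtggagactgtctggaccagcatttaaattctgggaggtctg
Lyz2: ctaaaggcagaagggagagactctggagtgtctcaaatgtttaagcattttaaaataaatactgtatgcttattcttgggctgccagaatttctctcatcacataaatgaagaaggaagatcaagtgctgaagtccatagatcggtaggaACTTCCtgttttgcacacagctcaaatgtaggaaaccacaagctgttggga
Cst7: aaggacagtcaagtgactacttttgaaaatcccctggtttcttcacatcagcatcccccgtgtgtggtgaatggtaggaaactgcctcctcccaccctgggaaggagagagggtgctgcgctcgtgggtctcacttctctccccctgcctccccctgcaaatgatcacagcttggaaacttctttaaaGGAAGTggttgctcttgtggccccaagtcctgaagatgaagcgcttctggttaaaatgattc
Itgax: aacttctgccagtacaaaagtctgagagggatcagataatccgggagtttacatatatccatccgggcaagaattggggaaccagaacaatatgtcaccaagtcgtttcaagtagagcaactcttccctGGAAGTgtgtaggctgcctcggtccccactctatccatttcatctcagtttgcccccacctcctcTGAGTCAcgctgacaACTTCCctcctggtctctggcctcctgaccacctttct
They lie at chr5:104434861-104435110 (plus strand), chr10:117282322-117282522 (minus), chr2:150570165-150570414 (plus) and chr7:128129300-128129546 (plus). Searching both strands of 250 bases before each RefSeq start, GGAAGT was found for these 4 of the 9 genes that had a window, and in 19.7% of all 32851 windows. TGANTCA was found for Cd68, Itgax and Trem2 and in 6.75% of windows, and CACGTG, the E-box of MITF and TFE factors, for 0 of 9 and in 6.02%. Tyrobp had no window. The motifs were picked after the sequences had been read. A match describes letters only and was not tested as a binding site.

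In KO cerebellum all 10 genes had higher mean levels than in controls. Lyz2 and Spp1 passed the test over all genes, and 9 of the 10, all but Axl, had both KO libraries above all 3 controls. Calls needed a Benjamini-Hochberg adjusted p under 0.05 in edgeR's quasi-likelihood test and an absolute log2 fold change over 0.5, and 1.55% of the 19447 tested genes met this, 0.514% in the higher direction. Both KO libraries lay above all controls for 13.8% of tested genes. An unadjusted p under 0.05 with a higher level was found for the same 9 members and for 6.9% of tested genes. The median log2 fold change of the 10 was 0.88, against 0.00 over all tested genes. DESeq2 called 5 of the 10, Lyz2, Spp1, Trem2, Tyrobp and Gpnmb, and 2.35% of the genes it tested. The study itself names Lyz2, Cd68 and Trem2 from these samples, and all 10 members were chosen with earlier results of these data known. None of them is independent evidence of the direction, and the shares over all genes are given for scale only. The p-values measure the spread among 3 control and 2 KO mice.

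**Figure D1:**
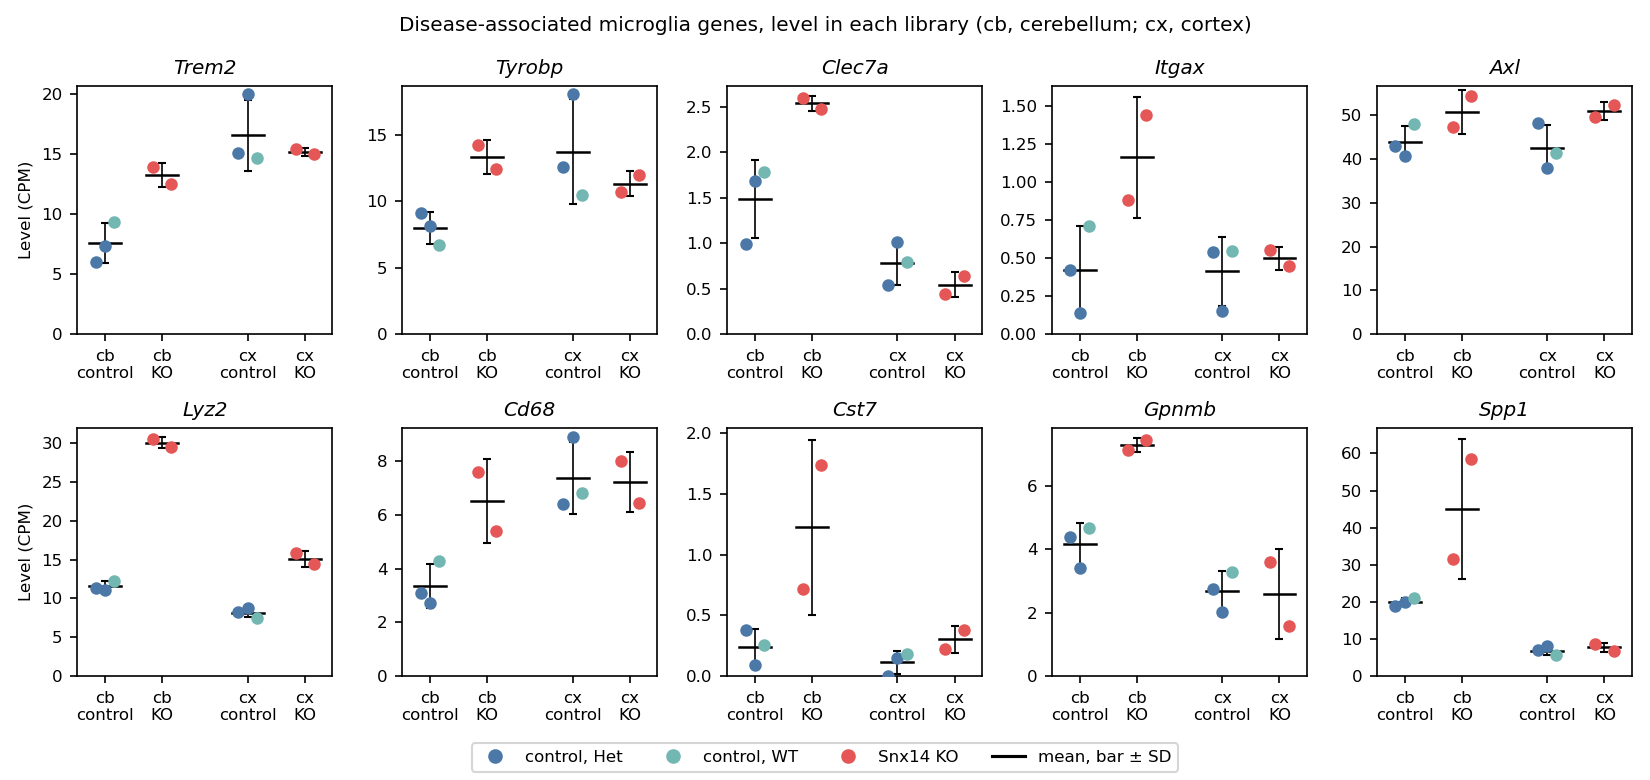
Level in CPM of each gene in every library of cerebellum (cb) and cortex (cx), 1 panel per gene with its own linear axis; points are libraries, lines are group means and bars are ± SD (n = 3 controls, n = 2 KO). Both KO cerebella lie above all cerebellar controls in 9 panels, Axl being the exception, while in cortex the groups separate upward for Lyz2, Axl and the low-count gene Cst7.

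Trem2, the lipid-sensing receptor (ENSMUSG00000023992.14, chromosome 17, 48346401 to 48354147, plus strand), was at 6.02, 7.32 and 9.34 CPM in the cerebella of controls 1 to 3 and at 14.0 and 12.5 CPM in KO 1 and KO 2. The groups did not overlap, and the KO mean was 1.75 times the control mean. Its log2 fold change was 0.80 (SE 0.191), with an adjusted p of 0.0843 in edgeR and 0.0125 in DESeq2. Tyrobp, its signalling adaptor (ENSMUSG00000030579.10, chromosome 7, 30413760 to 30417585, plus strand), was at 9.13, 8.11 and 6.70 CPM in controls and 14.2 and 12.4 CPM in KO mice. Receptor and adaptor thus had KO values above every control, although the WT control was the highest of the controls for Trem2 and the lowest for Tyrobp. Tyrobp had a log2 fold change of 0.73 (SE 0.159, adjusted p 0.0622; DESeq2 0.0110).

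Clec7a, which encodes the β-glucan receptor Dectin-1 (ENSMUSG00000079293.11, chromosome 6, 129461591 to 129472779, minus strand), was at 0.988, 1.68 and 1.78 CPM in control cerebella and 2.59 and 2.48 CPM in KO cerebella, from 21 to 60 counts a library. Its log2 fold change was 0.77 (SE 0.297, adjusted p 0.303). Itgax, the integrin chain CD11c (ENSMUSG00000030789.9, chromosome 7, 128129547 to 128150657, plus strand), was at 0.424, 0.140 and 0.711 CPM in controls and 0.882 and 1.45 CPM in KO mice. Both genes were low, and the closest KO value of Itgax, 16 counts, stood beside 14 counts in control 3. Itgax had a log2 fold change of 1.48 (SE 0.554, adjusted p 0.289).

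Axl, a receptor tyrosine kinase that binds GAS6 and takes part in the clearance of dying cells (ENSMUSG00000002602.16, chromosome 7, 25757273 to 25788705, minus strand), was at 42.9, 40.6 and 47.9 CPM in control cerebella. KO 1 and KO 2 were at 47.3 and 54.3 CPM, so KO 1 lay within the control range. It had a log2 fold change of 0.21 (SE 0.102, adjusted p 0.427), the smallest of the 10. Axl is known to be expressed in several brain cell types besides microglia.

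Lyz2, the lysozyme of macrophages, monocytes and neutrophils (ENSMUSG00000069516.8, chromosome 10, 117277331 to 117282321, minus strand), rose 2.60-fold in KO cerebellum. It was at 11.4, 11.1 and 12.3 CPM in controls and 30.6 and 29.6 CPM in KO mice, tight in both groups and far apart between them. The log2 fold change was 1.37 (SE 0.103, adjusted p 0.000591), and the adjusted p was 0.00772 or less with any 1 library left out. Lyz2 has a close paralog, Lyz1, and reads that fit both were not counted, so its level is uncertain.

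Cd68, a glycoprotein of lysosomes and endosomes in macrophages (ENSMUSG00000018774.13, chromosome 11, 69664213 to 69666153, minus strand), was at 3.11, 2.703 and 4.26 CPM in control cerebella and at 7.61 and 5.41 CPM in KO cerebella. The groups were apart, and the log2 fold change was 0.95 (SE 0.243, adjusted p 0.109; DESeq2 0.0544). Gpnmb, a transmembrane glycoprotein of lysosome-rich phagocytes (ENSMUSG00000029816.10, chromosome 6, 49036546 to 49070929, plus strand), was at 4.38, 3.40 and 4.67 CPM in controls and at 7.11 and 7.43 CPM in KO mice. The KO pair was close together and above all controls. Its log2 fold change was 0.81 (SE 0.184, adjusted p 0.0729; DESeq2 0.0461).

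Cst7, cystatin F, an inhibitor of lysosomal cathepsins (ENSMUSG00000068129.5, chromosome 2, 150570415 to 150578944, plus strand), was the lowest of the lysosomal members, at 0.377, 0.0932 and 0.254 CPM in control cerebella and 0.717 and 1.73 CPM in KO cerebella. These stand for 8, 2 and 5 counts in controls and 13 and 42 counts in KO mice. All controls were under the count minimum of 10, so Cst7 passed the low-count filter only through the KO libraries. Its fold change and test are therefore not evidence of the direction. The log2 fold change of 2.35 was the largest of the 10 and also had the largest SE, 0.587 (adjusted p 0.0994). It was 1.54 without KO 2 (adjusted p 0.583).

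Spp1, osteopontin, a secreted glycoprotein that binds integrins and CD44 (ENSMUSG00000029304.14, chromosome 5, 104435118 to 104441050, plus strand), rose in KO cerebellum but unevenly. Controls were at 18.9, 20.0 and 20.9 CPM and KO mice at 31.6 and 58.4 CPM. Both KO values lay above the narrow control range, with KO 2 far above KO 1. The log2 fold change was 1.18 (SE 0.218, adjusted p 0.0330). The call was lost without control 1, control 2, control 3 or KO 2 (adjusted p 0.170, 0.0583, 0.121 and 0.0545), and the fold change was 0.65 without KO 2 and 1.56 without KO 1. Of its exonic bases 18.75% overlap the gene Gm42793, and reads in the shared stretch were counted for both.

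In cortex 0 of the 8 tested members passed, as did 0 of 19202 genes, of which 5.93% had an unadjusted p under 0.05. DESeq2 called Lyz2 among the members and 49 genes in all (0.273%). Itgax and Cst7 were below the count minimum. Of the 8, 3 had a log2 fold change above 0 and 5 below, with a median of -0.02 against 0.00 over all tested genes. Both KO cortices lay above all controls for Lyz2 and Axl, and for 11.9% of tested genes. The same 2 members had an unadjusted p under 0.05 with a higher level, against 2.64% of tested genes.

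Lyz2 had the largest log2 fold change of the 8 members tested in cortex. It was at 8.26, 8.71 and 7.53 CPM in controls and at 15.9 and 14.4 CPM in KO mice, with no overlap. This gave a log2 fold change of 0.90 (SE 0.144), with an unadjusted edgeR p of 0.000286, an adjusted p of 0.754 and a DESeq2 adjusted p of 0.00911. Without cortex control 2 edgeR called it (adjusted p 0.00837). Axl was at 48.3, 38.0 and 41.3 CPM in control cortices and at 49.6 and 52.4 CPM in KO cortices, a log2 fold change of 0.28 (SE 0.118, adjusted p 0.831).

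Trem2 was at 15.1, 20.0 and 14.6 CPM in control cortices and at 15.4 and 14.96 CPM in KO cortices, a log2 fold change of -0.11 (SE 0.170). Tyrobp was at 12.6, 18.1 and 10.5 CPM in controls and 10.7 and 12.03 CPM in KO mice, a change of -0.27 (SE 0.235). For both genes the KO values fell inside the control range, whose top was control 2. Clec7a was at 0.539, 1.01 and 0.789 CPM against 0.442 and 0.636 CPM, a change of -0.54 (SE 0.463).

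Cd68 was at 6.40, 8.91 and 6.80 CPM in control cortices and at 8.02 and 6.43 CPM in KO cortices. Gpnmb was at 2.75, 2.03 and 3.28 CPM in controls and at 3.59 and 1.59 CPM in KO mice, and Spp1 at 6.94, 8.10 and 5.59 CPM against 8.57 and 6.87 CPM. In each of these genes the groups overlapped. Their log2 fold changes were -0.02, -0.01 and 0.18, with SEs of 0.206, 0.376 and 0.206. Itgax was at 0.539, 0.152 and 0.546 CPM in control cortices and 0.553 and 0.445 CPM in KO cortices. Cst7 had 0, 3 and 3 counts in control cortices, the first of which allows up to 0.171 CPM, and 4 and 6 counts in KO cortices.

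**Figure D2:**
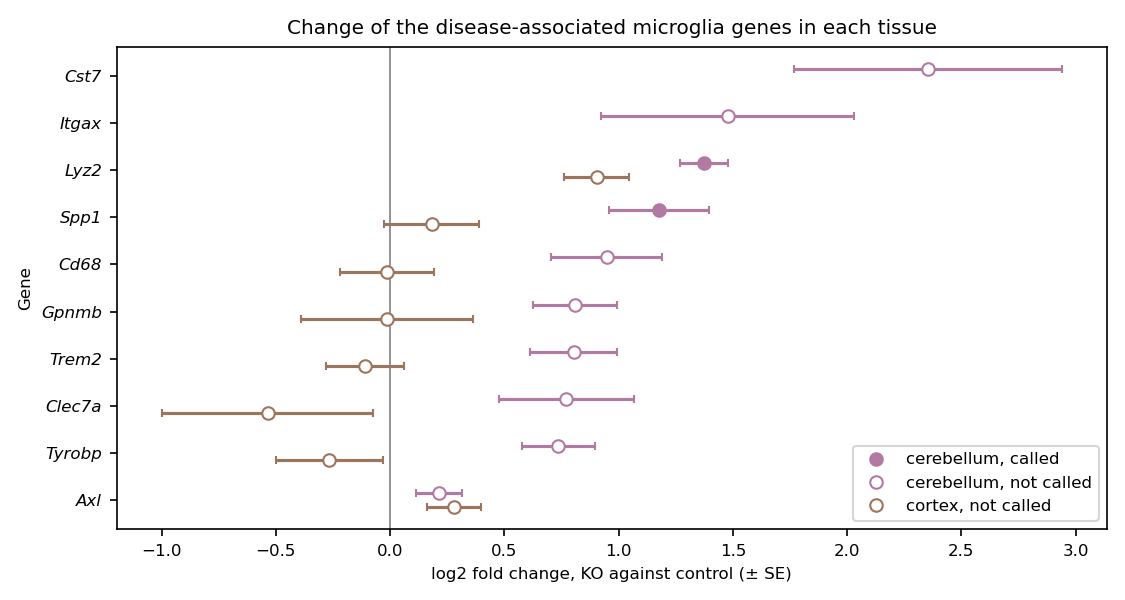
The log2 fold change of each gene, KO against control, in cerebellum and cortex, with bars of ± 1 SE and genes ordered by the cerebellum value; filled points passed the test over all genes. Lyz2 (1.37) and Spp1 (1.18) are filled in cerebellum, no cortex point is filled, and Cst7 and Itgax have no cortex point because they were below the count minimum.

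An interaction term over all 10 libraries asked whether a gene's KO effect was larger in 1 tissue. None of the 10 members passed in edgeR or DESeq2, while edgeR passed 0.102% of 20614 genes and DESeq2 1.15%. An unadjusted p under 0.05 in edgeR was found for 6 members, Trem2, Tyrobp, Clec7a, Lyz2, Cd68 and Spp1, all with the higher effect in cerebellum, and for 4.97% of tested genes in that direction. The tissues of a mouse pair the libraries, and with the animal as a block edgeR passed 128 genes rather than 21, again with 0 members.

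The differences, cerebellum minus cortex on the log2 scale, were 0.94 for Trem2 (SE 0.270, adjusted p 0.2998), 1.02 for Tyrobp (SE 0.305, adjusted p 0.315) and 1.02 for Spp1 (SE 0.341, adjusted p 0.384). With the animal block the adjusted p-values were 0.121, 0.0997 and 0.256. For Lyz2, which had the same direction in both tissues, the difference was 0.49 (SE 0.161, adjusted p 0.379), and for Axl it was -0.04 (SE 0.165). A p above the threshold does not show that the effects were alike. This comparison uses the same libraries as the comparisons within each tissue.

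In control mice the members did not share a tissue pattern. Trem2, Tyrobp and Cd68 were lower in cerebellum than in cortex, Spp1 was higher, and 4 of 9 tested members were called, 3 lower and 1 higher, against 40.5% of 19416 tested genes (21.5% lower, 19.1% higher). DESeq2 called the same 4, and 31.2% of the genes it tested. Trem2 changed by -1.15 (SE 0.194, adjusted p 0.0011), Cd68 by -1.15 (SE 0.224, adjusted p 0.00239) and Tyrobp by -0.80 (SE 0.212, adjusted p 0.0115) on the log2 scale, cerebellum against cortex. All 3 control cerebella lay below all 3 control cortices for these genes, as for 29.6% of tested genes. The Tyrobp call was lost without cerebellum control 3 (adjusted p 0.0513). Spp1 was 2.90 times as high in cerebellum, a log2 difference of 1.52 (SE 0.147, adjusted p 4.17e-05). The control cerebella lay above the cortices for Spp1, Lyz2 and Gpnmb, and for 32.1% of tested genes.

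Lyz2 was 0.49 higher in control cerebellum (SE 0.126, adjusted p 0.0105), just under the fold threshold. Clec7a differed by 0.89 (SE 0.353, adjusted p 0.0620) and Gpnmb by 0.62 (SE 0.237, adjusted p 0.0557), and both passed with the animal as a block (adjusted p 0.0307 and 0.0221). Axl differed by 0.03 (SE 0.112) and Itgax by 0.05 (SE 0.6500). The 11 homeostatic microglia genes, P2ry12, Tmem119 and Cx3cr1 among them, were all called lower in cerebellum, with a median of -1.67, as were 11 general genes of microglia and macrophages such as Csf1r (-1.30), with a median of -1.09. These lists and Trem2, Tyrobp and Cd68 thus had the same direction, while Spp1 had the opposite one. Control cerebella also enter the KO comparison of that tissue.

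Per transcript length, Spp1 (39.2 TPM), Tyrobp (38.8), Lyz2 (28.5) and Axl (28.2) were the highest members in control cerebellum. Spp1 and Tyrobp overlapped among the 3 mice, as did Lyz2 and Axl. Cd68 (8.68 TPM) and Trem2 (4.95) followed, each apart from its neighbours, and then Gpnmb (2.07), Clec7a (1.81), Cst7 (0.802) and Itgax (0.289), neighbours that overlapped. In control cortex Tyrobp led at 57.0 TPM, apart from Axl at 23.7, while Spp1 came after Lyz2 and Cd68 at 11.6 TPM and overlapped Trem2 at 9.31. In KO cerebellum Lyz2 stood at 74.9 TPM, above Tyrobp at 65.4, and Spp1 at 89.7 TPM overlapped Lyz2.

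**Figure D3:**
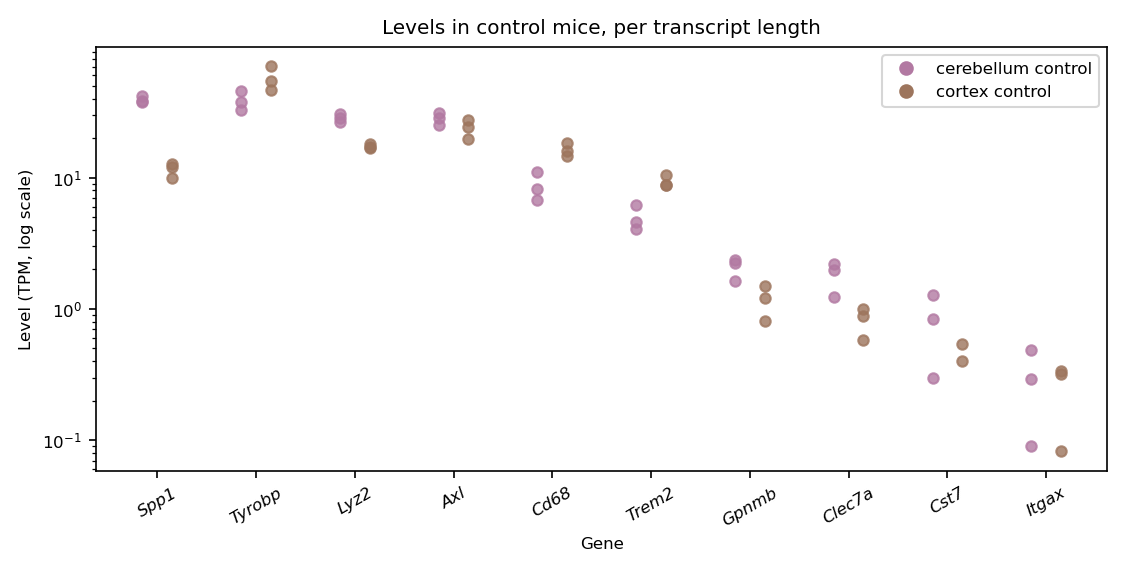
Level in TPM, on a log axis, of each gene in the 3 control cerebella and 3 control cortices, ordered by the cerebellum mean; points are libraries, and the cortex library with 0 counts of Cst7 is not drawn. Spp1 lies higher in cerebellum (37.99 to 41.6 TPM) than in cortex (9.99 to 12.8 TPM), and Tyrobp, Cd68 and Trem2 lie lower.

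The partner genes of the members lay mostly above 0 in KO cerebellum, and 1 of 25 was called, against 1.55% of tested genes. Of 12 TREM2 and TYROBP signalling genes, such as Syk and Inpp5d, 0 were called in KO cerebellum, 9 were above 0, and the median log2 fold change was 0.39. Cd33 (0.66), Inpp5d (0.59) and Pik3cg (0.74) had the smallest p (adjusted p 0.183, 0.218 and 0.276). An unadjusted p under 0.05 with a higher level was found for 5 of these 12 and for 6 of 13 ligands, receptors and partners of the other members, against 6.9% of tested genes, and DESeq2 called 0 of the 12 and 2 of the 13, Pros1 and Cd44. Of the 13, edgeR called Pros1, which encodes protein S, a ligand of MERTK and TYRO3. Pros1 was at 11.1, 10.02 and 11.9 CPM in controls and 16.05 and 18.8 CPM in KO cerebella, a log2 fold change of 0.66 (adjusted p 0.0491), and the call was lost with any 1 library left out (adjusted p 0.0654 to 0.281). Cd44, a receptor of osteopontin, had a value of 0.78 (adjusted p 0.0637) and Itgb2 0.64 (adjusted p 0.181). In cortex 0 of 12 and 0 of 13 were called.

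Other genes of the disease-associated state were split by stage. Of 7 early-stage genes 1 was called higher in KO cerebellum, Apoe, the main apolipoprotein of the brain, at 0.65 (adjusted p 0.0124), and the call was lost without control 1, control 3 or KO 2 (adjusted p 0.0687, 0.0778 and 0.0606). The list's median was 0.15. H2-D1, a class I antigen-presenting molecule, was lower at -0.42 (adjusted p 0.0185), short of the fold threshold, and Ctsd was at 0.33 (adjusted p 0.0800). Of 11 tested late-stage genes 11 were above 0, with a median of 0.72, and 0 were called, Ch25h (1.88), Ccl3 (1.67) and Cd63 (0.26) having the smallest p. Ch25h, at 0.102 to 0.424 CPM in control cerebella, and Ccl3, at 0.152 to 0.280 CPM, passed the low-count filter only through the KO libraries. Their direction, and their part in the 11 of 11 and the median, are therefore not evidence of a rise. In cortex 0 genes of either list were called, and the medians were -0.02 and -0.10.

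The general and homeostatic lists also lay mostly above 0 in KO cerebellum. All 11 general genes of microglia and macrophages were above 0, with a median of 0.51, and 2 were called, the complement subunits C1qa (0.85, adjusted p 0.00889) and C1qb (0.65, adjusted p 0.00885). Both calls were lost without KO 1 (adjusted p 0.0691 and 0.0711), and that of C1qb also without control 1 (0.0639). Of the 11 homeostatic genes 10 were above 0, with a median of 0.35. Fcrls, an Fc receptor-like gene of microglia, was called at 1.62 (adjusted p 0.00437). Of all tested genes 0.514% were called higher in KO cerebellum, and 50.2% were above 0. Neither list had a call in cortex, where the medians were -0.01 for the general and -0.02 for the homeostatic list.

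As a description of how the members stood against the microglial signal as a whole, their summed CPM was divided by that of the 11 general genes. The sums of the members were 97.7, 95.2 and 109 CPM in control cerebella and 157 and 186 CPM in KO cerebella, a ratio of 1.70. The general list went from 183, 199 and 213 CPM to 293 and 274 CPM. The members therefore amounted to 53.4%, 47.8% and 51.1% of that list in controls and to 53.5% and 67.7% in KO mice, so that KO 1 lay just above control 1. In cortex they amounted to 24.0%, 23.9% and 24.1% in controls and 28.1% and 27.5% in KO mice. Against the homeostatic list they amounted to 73.7%, 64.5% and 71.0% in control and 89.2% and 94.1% in KO cerebella. In cortex these values were 26.6%, 27.3% and 27.3%, and 33.2% and 28.6%. Of the general list, Axl alone amounted to 23.5%, 20.4% and 22.5% in control and 16.1% and 19.8% in KO cerebella. In cortex Axl was at 11.4%, 8.62% and 10.9% in controls and 12.4% and 13.1% in KO mice.

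Members differed in this ratio. That of Lyz2 to the general list was 1.81 times as high in KO cerebellum as in controls and 1.91 times as high in KO cortex, with no overlap in either tissue. That of Cst7 was 3.54 times and that of Spp1 1.59 times as high in cerebellum, but 1.98 and 1.07 times without KO 2. Those of Trem2 (1.23), Clec7a (1.21) and Gpnmb (1.22) were also above all controls, while those of Tyrobp (1.15), Cd68 (1.36) and Itgax (1.96) overlapped. For Axl the ratio was 0.812, with both KO cerebella below all controls. The share of all genes with such an order was not computed for this ratio. For plain CPM both KO cerebella lay above all controls for 13.8% of tested genes and below them for 16.6%. The order of the ratios is therefore a description only.

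**Figure D4:**
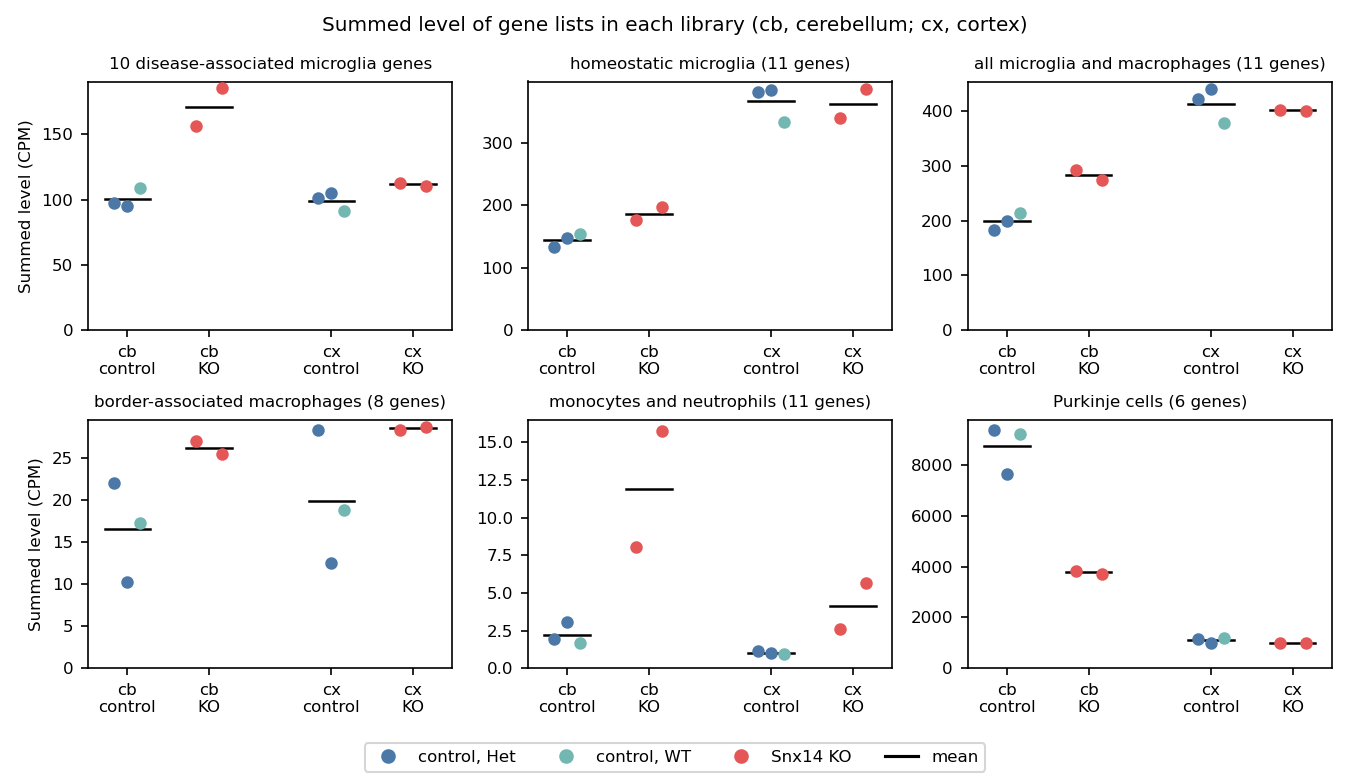
Summed CPM of the 10 genes and of 5 marker lists in every library of cerebellum (cb) and cortex (cx), on linear axes from 0; points are libraries and lines are group means. In KO cerebellum the 10 genes (157 and 186 CPM), the homeostatic list and the general list lie above all controls. So do the border-associated macrophage list (27.0 and 25.4 CPM) and the monocyte and neutrophil list (8.05 and 15.8 CPM). The PC list (3841 and 3730 CPM) lies below all controls. In KO cortex the 10 genes (113 and 110 CPM) also lie above all controls (91.1 to 105 CPM). The monocyte and neutrophil list does so too (2.60 and 5.66 against 0.971 to 1.14 CPM). The border-associated list does so narrowly (28.4 and 28.6 against 12.5 to 28.3 CPM). In cortex the PC list lies below all controls (984 and 1003 against 1011 to 1208 CPM), and the homeostatic and general lists overlap.

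Markers of some other cells also differed between KO mice and controls, not all in the same direction as the members. The 11 monocyte and neutrophil markers summed to 1.93, 3.08 and 1.68 CPM in control cerebella and to 8.05 and 15.8 CPM in KO cerebella, and to 0.971 to 1.14 CPM in control cortices and 2.60 and 5.66 CPM in KO cortices. Of these 11 genes 5 could be tested in cerebellum, all 5 were above 0, and Chil3 (3.95, adjusted p 0.0251) and Ngp (3.26, adjusted p 0.0114), granule and secretory genes of myeloid cells, were called. Both calls were lost without KO 2 (adjusted p 0.133 and 0.0909) and without control 1 (0.0848 and 0.0710), that of Chil3 also without KO 1 (0.105) and that of Ngp without control 3 (0.0608). Chil3, at 0 to 0.152 CPM in control cerebella, and Ngp, at 0.254 to 0.282 CPM, passed the low-count filter only through the KO libraries. The filter thus favoured a higher KO level, so neither these calls nor the 5 of 5 above 0 are evidence of the direction. The neutrophil surface gene Ly6g was at 0 to 0.0508 CPM in control and 0.0551 and 0.0826 CPM in KO cerebella, and 2 or 3 of the 11 markers were at 0 in each control cerebellum. Lyz2 is also expressed by monocytes and neutrophils, and the part of these cells in its level was not tested.

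Border-associated macrophage markers, 8 genes such as Mrc1, summed to 10.3 to 22.1 CPM in control cerebella and to 27.0 and 25.4 CPM in KO cerebella, with 0 called and a median log2 fold change of 0.51. In cortex the sums were 12.5 to 28.3 CPM and 28.4 and 28.6 CPM. Fibroblast markers of the meninges summed to 83.4 to 232 CPM and to 179.5 and 280.2 CPM in cerebellum, with 6 of 6 above 0 and 0 called. Of 5 astrocyte markers Gfap, Gja1 and Aqp4 were called higher (1.30, 0.78 and 0.69; Aqp4 not without control 1, control 3 or KO 1, adjusted p 0.0629, 0.0596 and 0.0618). The glutamate transporter gene Slc1a3 had the opposite sign (-0.43, adjusted p 0.0843), at 1298 to 1499 CPM in control and 1109 and 1012 CPM in KO cerebella. Calls in the higher direction made up 0.514% of all genes tested there. All 6 PC markers were called lower, against 1.04% of tested genes, Calb1 at -1.24, Pcp2 at -1.08, Car8 at -1.35, Rgs8 at -1.23, Itpr1 at -1.16 and Ppp1r17 at -1.28. The study itself names Gfap, Calb1, Pcp2, Car8 and Rgs8 from these cerebella, so they are not independent evidence of the direction. The call of Itpr1 was lost without control 1, control 3, KO 1 or KO 2 (adjusted p 0.0624, 0.0561, 0.0691 and 0.0601). Lymphocyte and dendritic cell markers, of which 3 of 8 could be tested, had 0 calls in cerebellum. Of these, Flt3 made up most of the sum, at 37.1 to 46.8 CPM in control and 30.4 and 30.8 CPM in KO cerebella, and the other 7 summed to 0.886 to 1.84 CPM and to 2.59 and 1.69 CPM. Endothelial, granule cell, choroid plexus and cortical neuron markers also had 0 calls there. In cortex the 5 astrocyte markers were all above 0 and summed to 776 to 1088 CPM in controls and 1116 and 1209 CPM in KO mice. The 4 endothelial markers were also all above 0 in cortex, with a median of 0.58, and 0 genes of either list were called. The part of these cells in the members' levels was not tested.

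The genes whose pattern over the 10 libraries was most like the mean pattern of the members were Ccnk (Pearson's r 0.950), Heph (0.934), Prodh (0.917), Tgfbi (0.912) and Apoe (0.912). The mean is taken over standardized log2 CPM, and the libraries share tissues, genotypes and mice, so r is a description. Heph was at 5.03 to 7.41 CPM in control and 13.8 to 14.2 CPM in KO cerebella, and at 5.46 to 7.12 and 8.02 to 10.9 CPM in cortex. Among the members themselves r with the same mean, which contains them, was highest for Lyz2 (0.897) and Cst7 (0.831) and lowest for Trem2 (0.286), Tyrobp (0.365) and Cd68 (0.374), the genes that were lower in control cerebellum than in control cortex.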

How the data were processed

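RNA of cerebellum and cortex from 3 control and 2 KO mice was sequenced, and all 10 libraries were used. Each library has a table of unnormalized gene counts (read pairs), as deposited by the authors, who had trimmed the reads of strand-specific libraries, used STAR for mapping to GRCm38 and featureCounts 2.0.1 for counting over exons without regard to strand, leaving out reads with several mapping places. Mouse gene identifiers, with GENCODE M21 symbols, made up 55536 of 81881 entries. The other 26345, holding 0.160% to 0.926% of a library's counts, were left out.

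Groups came from the labels, with Het and WT controls pooled as the labels do. KO and control were compared within each tissue, and the tissues in controls and by interaction, by edgeR's quasi-likelihood F test (edgeR 4.0.16, R 4.3.3, filterByExpr with a count minimum of 10, TMM). Adjustment was by Benjamini-Hochberg over all tested genes. Calls needed an adjusted p under 0.05 and, except in the interaction, an absolute log2 fold change over 0.5. Alternatives were DESeq2 1.42.0, DESeq2-type size factors, no filter, all libraries in 1 fit, a replicate block and leaving out each library. The biological coefficient of variation was 0.121 in cerebellum and 0.141 in cortex, so counting error matters most for the low genes Itgax, Cst7 and Clec7a.

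The animal numbers of the labels pair the tissues of a mouse, and deviations from the group means correlated with r of 0.163 to 0.367 for the same control mouse. Within a group, counts of replicates differed by a chi-square of 4.12 to 28.5 per degree of freedom, beyond sampling noise.

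The members and all lists were chosen with earlier results of these data known. Named besides the members were Snx14, every called gene of the lists in the KO comparisons and at most 3 others with the smallest p in a comparison, and the 5 genes most alike. Genes given as examples of a list (Syk, P2ry12, Tmem119, Cx3cr1, Csf1r, Mrc1, Ly6g) and the markers Slc1a3 and Flt3 were named outside this rule. Motifs were searched in RefSeq windows of GRCm38.p6, which 9 of the 10 members had.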

Additional observations from a re-analysis of the deposited data

Results flagged for a closer look

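The mean levels of Trem2, Tyrobp and Clec7a differed from controls with opposite signs in the 2 tissues: both KO cerebella lay above the mean of the control cerebella, and both KO cortices lay below the mean of the control cortices. The log2 differences of the KO effect, cerebellum minus cortex, were 0.94 for Trem2, 1.02 for Tyrobp and 1.33 for Clec7a. The differences were tested as interaction terms in edgeR and did not pass over all genes (adjusted p 0.2998, 0.315 and 0.512). None of the 3 passed in cortex, where the KO values of Trem2 and Tyrobp fell inside the control range, and without cortex control 2 their cortex log2 fold changes were 0.0467 and -0.0153. Clec7a rests on 8 to 20 counts a library in cortex. No group held 4 or more libraries, so single libraries were not tested as outliers.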

How the results depend on the processing

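Log2 fold changes of the 10 members in cerebellum kept their direction under every alternative tried, and the call of Lyz2 held under each. Of the other cerebellar calls, that of Spp1 was lost with the replicate block (1.15, adjusted p 0.0581). KO and control mice of the same number are different animals, but they were also of the same sex, female for number 1 and male for number 2. Their deviations from the group means correlated with r of 0.0591 and 0.114 in cortex and 0.0165 and -0.0355 in cerebellum. The number of members called there was 2, and it was 5 with DESeq2, 8 with no filter on low counts, 1 with the replicate block and 1 to 2 with a library left out. Genes called were 302 as reported, 842 with no filter, 181 with the block and 133 to 400 with a library left out, lowest without control 1. In cortex 0 genes were called as reported, 49 with DESeq2, 380 with no filter, 3 with the block and 0 to 98 with a library left out, highest without control 2. Members called in cortex were 1 with DESeq2, 1 with no filter and 0 to 1 with a library left out, Lyz2 in each case. In the interaction 21 genes passed as reported, 219 with DESeq2, 599 with no filter, 128 with the block and 3 to 117 with a library left out, and 3 members passed with no filter. The fit with no filter tests many genes with few counts, and its calls were not used. In control mice, where 40.5% of all tested genes were called as reported, the number of members called ranged from 3 to 6. The ratio of summed member CPM, KO to control, was 1.70 in cerebellum (1.56 to 1.85 with a library left out, chosen after seeing the data) and 1.12 in cortex (1.08 to 1.16).

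Small changes turned direction. In cortex Gpnmb was 0.0732 with the block and ranged from -0.73 to 0.44 with a library left out, Trem2 from -0.19 to 0.0467 and Cd68 from -0.19 to 0.15. The interaction of Axl ranged from -0.17 to 0.0541, and in controls Itgax ranged from -0.52 to 0.48 and Axl from -0.0787 to 0.11. The cause was not tested. Depth limits Itgax and Cst7, which had at most 10 counts in any cortex library.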
